A study of Homo sapiens with 12 samples.

Results

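AP-1 is a family of dimeric transcription factors, and the 10 genes described here are its FOS and JUN subunits, the related factor ATF3, and 2 further genes of the immediate early response, EGR1 and IER3. The members were listed by symbol and not by a cut-off on their levels, but with earlier results of these data known. They are 10 of the 58278 gene rows listed in each of 12 RNA sequencing libraries, with 1 row per symbol. All 10 passed the filter on low values.

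The libraries came from HK2, an immortalised human proximal tubular epithelial cell line, and every group therefore shared 1 line, its immortalisation and its medium. There were 6 groups with 2 replicate cultures each. Ctrl received neither cytokine nor fatty acid, and TN received TNF-α, an inflammatory cytokine, at 5 ng/mL for 3 h. PRTN and BUTN received propionate at 15 mM or butyrate at 3 mM for 24 h before the same TNF-α exposure. TNPR and TNBU received the same acids for 24 h after it. Propionate and butyrate are short-chain fatty acids (SCFAs) made by gut bacteria, and both inhibit histone deacetylases. The doses of the acids differed. Cells given the added 24 h in plain medium were not analysed here, so in TNPR and TNBU the time after TNF-α and the SCFA cannot be told apart. Every library with an SCFA also had TNF-α, so an altered response to the cytokine and the acid's own effect cannot be told apart. These comparisons describe tubular cells given an SCFA before or after the cytokine, beside cells given TNF-α alone or neither.

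Immediate early genes are transcribed within minutes of a stimulus from promoters that need no new protein, and many of their products are short-lived. FOS proteins do not form stable pairs among themselves. They pair with a JUN protein through a leucine zipper, and the dimer binds the TRE motif, or the related CRE motif, in genes of growth, invasion and inflammation. FOS and FOSB carry strong activation domains, whereas FOSL1 (Fra-1) and FOSL2 (Fra-2) lack most of them. JUN is the strongest activator of its family, JUNB and JUND can restrain it, and ATF3 often represses the genes it binds. TNF-α acts on these genes through the JNK, p38 and ERK kinases, and in injured tubules FOS, JUN, ATF3 and EGR1 are well known stress genes.

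Library totals lay between 27269986 and 33851130 expected counts (median 30545923). Levels are given as CPM, a gene's count scaled to a common library size, with libraries scaled by the trimmed mean of M values (TMM). Of 7 epithelial markers, 6 reached 1 CPM in every library. The keratins KRT8 and KRT18 were highest, at 701 to 1440 CPM and 354 to 728 CPM. The other markers were lower, and CDH1 ran from 0.0745 to 14.4 CPM, KRT19 from 4.47 to 121 CPM and EPCAM from 13.3 to 58.1 CPM. Of 14 proximal tubule markers, 8 reached 1 CPM in at least 1 library and 5 did so in every library. SLC22A6 was at 0 in all 12 libraries, SLC34A1 did not exceed 0.0867 CPM, and HNF4A did not exceed 0.636 CPM, so defining genes of the differentiated tubule were absent or nearly so. The leukocyte genes PTPRC and CD3E did not exceed 0.152 and 0.064 CPM. The summed proximal tubule markers were 712 to 767 CPM in Ctrl and TN and 285 to 322 CPM in the 4 SCFA groups. The summed epithelial markers were 1530 to 1590 CPM in Ctrl and TN and 1970 to 2570 CPM with an SCFA. The fibroblast markers summed to 52.6 to 59.6 CPM and 204 to 255 CPM, respectively, carried by COL1A1 and LUM, with COL1A2 at or under 0.438 CPM. The endothelial markers summed to at most 0.287 CPM in Ctrl and TN and at most 3.87 CPM elsewhere, and the leukocyte markers, carried by CD68, lay between 28.5 and 53.4 CPM over all groups. The part of these shifts in the results below was not tested.

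Promoter sequence is shown for 4 members that moved differently, of which FOS, FOSB and EGR1 share a short motif: FOS and JUN rose with every SCFA treatment, FOSB fell or did not pass the test, and EGR1 passed it nowhere. The 250 bases before the gene start, from RefSeq on GRCh38.p14, read 5′ to 3′ along the gene's strand, with matched motifs in capitals. They lie at chr14:75278578-75278827 (plus strand), chr19:45467746-45467995 (plus), chr1:58784048-58784297 (minus) and chr5:138465229-138465478 (plus).
FOS: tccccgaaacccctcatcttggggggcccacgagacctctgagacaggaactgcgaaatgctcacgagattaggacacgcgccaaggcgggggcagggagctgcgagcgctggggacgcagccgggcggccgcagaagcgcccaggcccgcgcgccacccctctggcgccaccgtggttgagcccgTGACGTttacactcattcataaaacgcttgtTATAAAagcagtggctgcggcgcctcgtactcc
FOSB: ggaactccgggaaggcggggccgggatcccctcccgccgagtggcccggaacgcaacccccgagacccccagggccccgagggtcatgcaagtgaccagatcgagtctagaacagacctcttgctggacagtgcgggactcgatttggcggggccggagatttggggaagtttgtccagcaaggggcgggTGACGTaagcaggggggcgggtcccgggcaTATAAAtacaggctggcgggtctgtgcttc
JUN: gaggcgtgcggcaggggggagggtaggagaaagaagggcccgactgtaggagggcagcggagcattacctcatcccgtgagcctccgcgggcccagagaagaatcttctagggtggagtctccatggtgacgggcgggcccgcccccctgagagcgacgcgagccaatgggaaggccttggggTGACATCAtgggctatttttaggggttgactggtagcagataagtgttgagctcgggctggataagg
EGR1: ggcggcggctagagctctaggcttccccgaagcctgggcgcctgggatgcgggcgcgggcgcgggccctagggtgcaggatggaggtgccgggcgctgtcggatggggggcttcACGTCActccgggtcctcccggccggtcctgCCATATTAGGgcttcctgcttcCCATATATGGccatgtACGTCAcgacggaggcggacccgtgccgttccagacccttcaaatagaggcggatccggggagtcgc

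In FOS the core of a CRE, TGACGT, lay 64 to 59 bases before the start and a TATA motif, TATAAA, at 33 to 28. FOSB had nearly the same arrangement, with TGACGT at 60 to 55 and TATAAA at 30 to 25. In JUN the 8 letters TGACATCA stood at 67 to 60. EGR1 had 2 CArG boxes, the motif of serum response factor, at 105 to 96 and 83 to 74, and 2 reverse copies of TGACGT at 136 to 131 and 67 to 62. Both strands were searched, and a full CRE holds TGACGT on each strand. Of the 10 members, 7 had a single promoter in the table, ATF3 had several starts and was left out, and FOSL1 and IER3 are named only. TGACGT was found in 5 of the 7 (FOS, FOSB, FOSL2, JUND and EGR1) and in 7.10% of 35116 RefSeq promoters of that length. The full CRE TGACGTCA was found in JUND alone (1.65% of promoters), TGACATCA in JUN alone (2.37%), a CArG box in EGR1 alone (1.16%) and TATAAA in FOS, FOSB and JUNB (10.7%). The TRE TGACTCA, the EGR1 motif GCGTGGGCG and the kappaB site were found in 0 of the 7 (4.20%, 0.720% and 9.96% of promoters). A match describes these letters and is not a shown binding site.

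Compared per kilobase of exon, the members covered a wide range of levels. In Ctrl, EGR1 (115 CPM per kb) and IER3 (110 CPM per kb) were highest, followed by JUN at 78.9, JUNB at 71.6 and FOSL2 at 62.4 CPM per kb. FOSB and ATF3 were lowest, at 13.7 and 12.2 CPM per kb. IER3 led in the other 5 groups, from 142 CPM per kb in TN to 318 CPM per kb in BUTN. FOS was the lowest of the 10 in TN (12.9 CPM per kb) and the fourth highest in PRTN (80.4 CPM per kb).

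**Figure D1:**
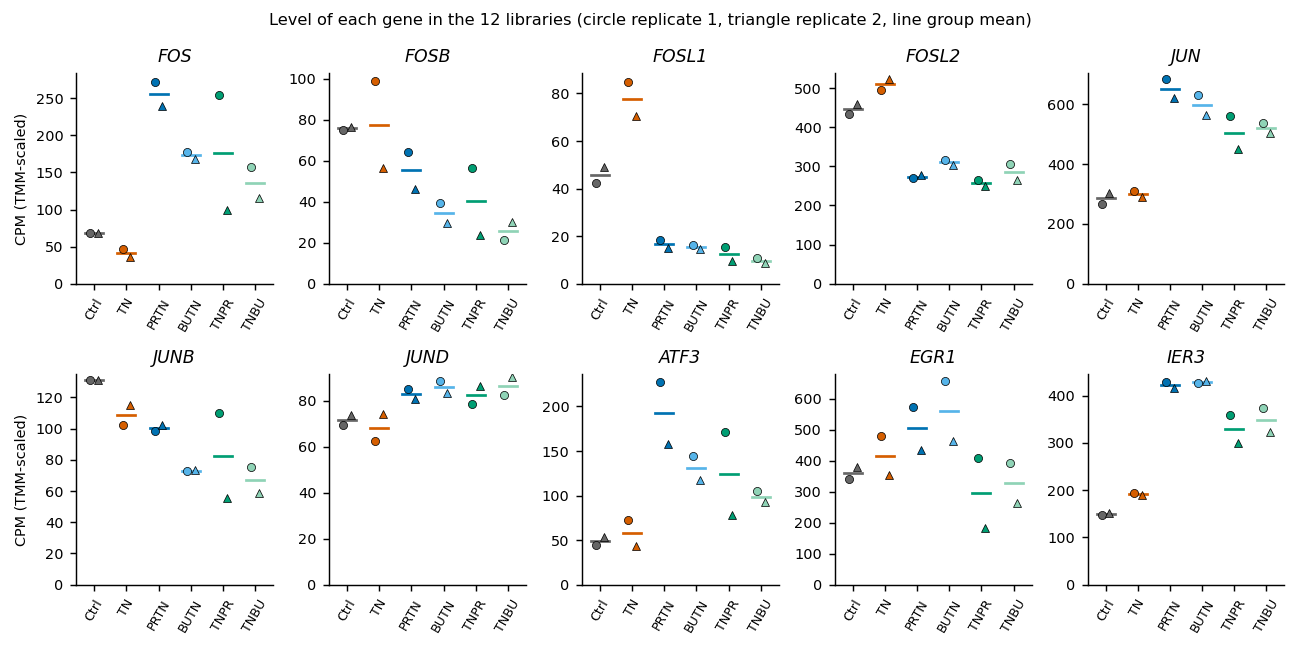
Level of each of the 10 genes in CPM (vertical axes, each starting at 0) in the 6 groups, with a circle for replicate 1, a triangle for replicate 2 and a line at the group mean. FOS, JUN, ATF3 and IER3 stand higher in the 4 SCFA groups than in Ctrl and TN, FOSL1 and FOSL2 stand lower, and TNPR replicates lie far apart for FOS (254 and 99.7 CPM), ATF3 and EGR1.

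TNF-α alone moved few of these genes at 3 h. FOSL1 rose 1.69-fold over Ctrl, and the other 9 members did not pass the test, which required over 1.5-fold and an adjusted p under 0.05 in limma-voom over 24342 genes. Of all genes tested, 0.764% were called higher and 0.534% lower in this comparison. The members' median log2 fold change was 0.13, beside -0.01 over all genes. Here and below, p-values measure the spread between 2 replicates per group, pooled over all 6 groups, and 2 against 2 libraries allow no exact permutation p under 0.05. In bulk RNA, fewer cells that express a gene and less RNA per cell cannot be told apart.

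FOSL1, whose product replaces FOS in late AP-1 dimers, had 42.2 and 49.2 CPM in Ctrl and 84.7 and 70.4 CPM in TN. Both TN libraries lay above both Ctrl libraries. The log2 fold change was 0.76 ± 0.15 (SE), with an adjusted p of 0.0153. The call was lost without Ctrl replicate 1 (0.65, adjusted p = 0.182), without Ctrl replicate 2 (0.87, adjusted p = 0.0591), without TN replicate 1 (0.63, adjusted p = 0.163), and when only these groups were fitted (0.78, adjusted p = 0.109). The study also placed FOSL1 on gene lists drawn from these same libraries, so that placement is not independent evidence.

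IER3, a short-lived modulator of cell survival that lies downstream of NF-κB, had 147 and 151 CPM in Ctrl and 194 and 189 CPM in TN. The groups did not overlap, but the log2 fold change of 0.36 ± 0.09 was under 1.5-fold, with an adjusted p of 0.0505. FOS had 68.2 and 68.3 CPM in Ctrl and 46.2 and 35.9 CPM in TN, which gave a log2 fold change of -0.75 ± 0.36 and an adjusted p of 0.320. JUN, JUND, FOSB, ATF3 and EGR1 overlapped between Ctrl and TN.

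With an SCFA, the members split in opposite directions. Against TN, PRTN had 4 members called higher (FOS, JUN, ATF3 and IER3) and 2 called lower (FOSL1 and FOSL2), where 23.9% and 16.7% of all genes were called higher and lower. BUTN had the same 4 called higher and 3 called lower (FOSB, FOSL1 and FOSL2), beside 23.1% and 14.8% of all genes. TNPR had 4 higher (FOS, JUN, ATF3 and IER3) and 3 lower (FOSB, FOSL1 and FOSL2), beside 24.9% and 16.9%. TNBU had 3 higher (FOS, JUN and IER3) and 4 lower (FOSB, FOSL1, FOSL2 and JUNB), beside 25.0% and 16.5%. With so many genes called everywhere, these counts are near or modestly above the background, and the sizes of the changes carry the description. All 4 comparisons share the TN libraries. The members' median log2 fold changes were 0.28, 0.38, -0.10 and -0.01 for PRTN, BUTN, TNPR and TNBU, beside 0.09, 0.08, 0.12 and 0.09 over all genes. Scaling by library size alone moved the all-gene medians to 0.24, 0.23, 0.29 and 0.29. Only JUNB in PRTN vs TN, which was not called, changed sign between these scalings in the 4 comparisons with TN, from -0.12 to 0.04.

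**Figure D2:**
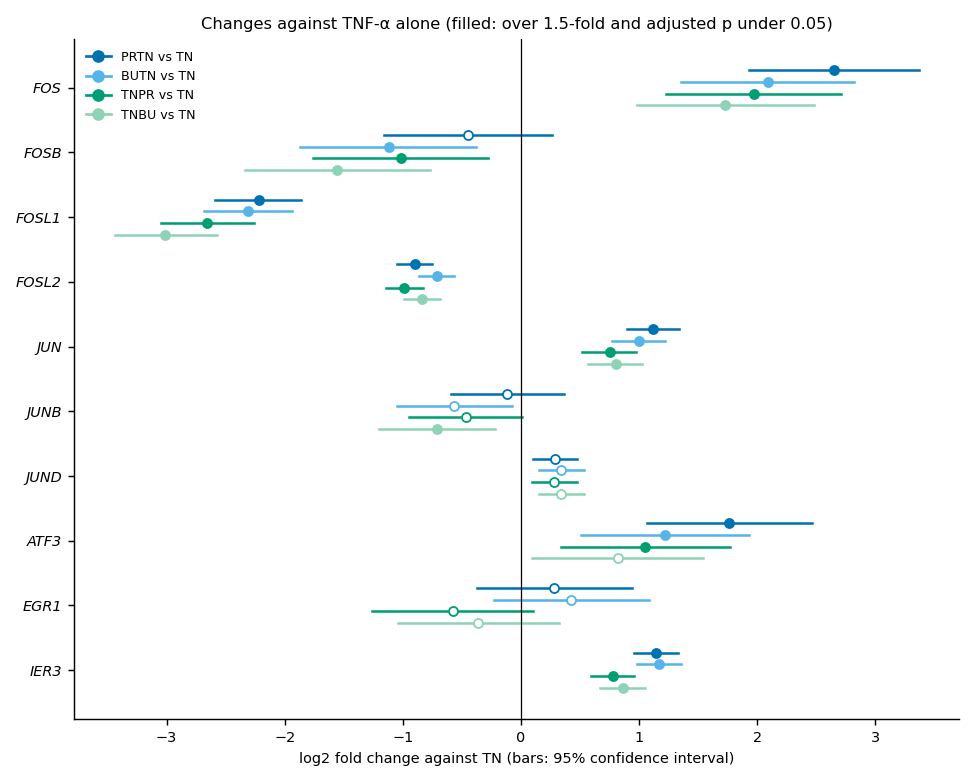
Log2 fold change of each gene against TN (horizontal axis) for PRTN, BUTN, TNPR and TNBU, with 95% confidence intervals from limma-voom and filled circles for calls. FOS is farthest to the right (2.65 in PRTN) and FOSL1 farthest to the left (-3.01 in TNBU), while JUND stays between 0.28 and 0.34 and the EGR1 intervals all include 0.

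FOS had the largest rise of the 10 against TN in PRTN, BUTN, TNPR and TNBU. Its product is the classic partner of JUN. FOS stood at 46.2 and 35.9 CPM in TN and at 272 and 240 CPM in PRTN, a 6.28-fold rise (log2 2.65 ± 0.33, adjusted p = 2.05e-05). BUTN had 178 and 168 CPM, 4.25-fold over TN (2.09 ± 0.34, adjusted p = 0.000195). Every library of PRTN and BUTN lay above every library of TN and Ctrl, and the BUTN pair lay below the PRTN pair.

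When the acid followed TNF-α, FOS was less even between replicates. TNPR had 254 and 99.7 CPM, 3.93-fold over TN (log2 1.97 ± 0.34, adjusted p = 0.000279), and TNBU had 158 and 115 CPM, 3.31-fold over TN (1.73 ± 0.34, adjusted p = 0.000875). The TNPR value against TN was 1.25 without TNPR replicate 1 and 2.64 without replicate 2, and the call held in both fits. All 4 libraries stayed above the 4 of TN and Ctrl. Against Ctrl, FOS rose 3.75-fold with PRTN, 2.53-fold with BUTN, 2.34-fold with TNPR and 1.97-fold with TNBU, and the fitted fold of ATF3 was slightly above that of FOS in each. The TNPR value against Ctrl fell to 0.51 (adjusted p = 0.0290), under 1.5-fold, without TNPR replicate 1, and the TNBU value lost its call without Ctrl replicate 1 (adjusted p = 0.0779), Ctrl replicate 2 (0.0771) or TNBU replicate 1 (0.141).

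FOSL1 had the deepest fall. Beside 84.7 and 70.4 CPM in TN, PRTN had 18.3 and 14.9 CPM and BUTN 16.4 and 14.8. TNPR had 15.5 and 9.56 CPM and TNBU 10.8 and 8.6. All 8 SCFA libraries lay below both Ctrl libraries, which were in turn below TN. The falls against TN were 4.67-fold in PRTN (log2 -2.22 ± 0.17, adjusted p = 2.47e-07) and 4.95-fold in BUTN (-2.31 ± 0.17, adjusted p = 2.57e-07). They were 6.30-fold in TNPR (-2.66 ± 0.18, adjusted p = 9.85e-08) and 8.03-fold in TNBU (-3.01 ± 0.20, adjusted p = 8.31e-08). Against Ctrl, FOSL1 fell 2.76-fold, 2.92-fold, 3.72-fold and 4.74-fold in PRTN, BUTN, TNPR and TNBU. These calls held in all 15 alternative settings.

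FOSL2, the most abundant FOS family transcript in Ctrl and TN, also fell. It had 434 and 459 CPM in Ctrl and 494 and 524 in TN. PRTN had 269 and 278 CPM and BUTN 316 and 304, and TNPR had 266 and 249 CPM and TNBU 306 and 265. The SCFA libraries did not overlap Ctrl or TN. Against TN the falls were 1.86-fold (log2 -0.90 ± 0.07, adjusted p = 2.85e-07), 1.64-fold (-0.71 ± 0.07, adjusted p = 2.36e-06), 1.98-fold (-0.99 ± 0.07, adjusted p = 1.31e-07) and 1.79-fold (-0.84 ± 0.07, adjusted p = 5.70e-07) in PRTN, BUTN, TNPR and TNBU. The changes were smaller than those of FOSL1, and the spread between replicates was small. In BUTN the log2 fold change was -0.56 under library size alone, which is under 1.5-fold. Against Ctrl, FOSL2 was 1.44-fold lower in BUTN and so was not called, and it fell 1.57-fold to 1.74-fold in the other SCFA groups, with TNBU losing its call without TNBU replicate 2 (-0.54).

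FOSB, the other strong activator of the family, did not follow FOS. It had 75.3 and 76.6 CPM in Ctrl and 98.9 and 56.6 CPM in TN. In PRTN it had 64.4 and 46.3 CPM, and the change against TN did not pass the test (log2 -0.45 ± 0.33, adjusted p = 0.265). BUTN had 39.6 and 29.9 CPM, 2.18-fold lower than TN (-1.12 ± 0.34, adjusted p = 0.0140).

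After TNF-α, FOSB had 56.7 and 23.7 CPM in TNPR (log2 -1.02 ± 0.34 against TN, adjusted p = 0.0218) and 21.3 and 30.1 CPM in TNBU (-1.56 ± 0.36, adjusted p = 0.00258). Replicate 1 of TNPR overlapped TN, whereas TNBU lay below every TN and Ctrl library. The TNPR call was lost without TNPR replicate 2 (-0.40, adjusted p = 0.282) or TN replicate 1 (-0.65, adjusted p = 0.194), with DESeq2 (adjusted p = 0.0740), under library size alone (0.0505) and when only these groups were fitted (0.0668). The BUTN call was lost without TN replicate 1 (-0.75, adjusted p = 0.139) or BUTN replicate 2 (-0.92, adjusted p = 0.103). FOS and FOSB, whose printed promoters both place TGACGT and TATAAA near the start, had fitted changes of opposite sign against TN in PRTN, BUTN, TNPR and TNBU, although that of FOSB in PRTN did not pass the test.

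The composition of the FOS family changed more than its sum. Summed per kilobase, the family had a mean of 122 CPM per kb in Ctrl, 139 in TN, 137 with PRTN, 112 with BUTN, 105 with TNPR and 92.5 with TNBU. FOS made up 17.6% ± 0.76 (SD, n = 2) of this in Ctrl and 9.22% ± 0.984 in TN. It made up 58.5% ± 0.994 with PRTN, 48.4% ± 0.387 with BUTN, 50.2% ± 12.4 with TNPR and 46.1% ± 3.60 with TNBU. In each SCFA library the FOS share was above that of every Ctrl and TN library.

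FOSL1 made up 19.9% ± 1.3 of the family in Ctrl, 29.5% ± 1.71 in TN and between 5.54% and 7.37% in the SCFA groups. FOSL2 made up 51.3% in both Ctrl and TN, 27.9% ± 2.64 with PRTN, 38.7% ± 0.679 with BUTN, 36.8% ± 13.2 with TNPR and 43.2% ± 1.73 with TNBU. Thus FOSL1 and FOSL2 together dominated both in Ctrl and with TNF-α alone, and FOS was the largest single share in every SCFA group by mean. In TNPR replicate 2 (FOS 41.5%, FOSL2 46.1%) and TNBU replicate 2 (43.5% and 44.5%), however, FOSL2 was the larger. These shares depend on the exon length used: with the canonical transcript of each gene in place of all its exons, FOS made up 12% in TN and 65.1% in PRTN. With those lengths (2104 bases for FOS and 6713 for FOSL2), FOS was larger than FOSL2 in TNPR replicate 2 and TNBU replicate 2 as well. The shares are a description, with no test.

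**Figure D3:**
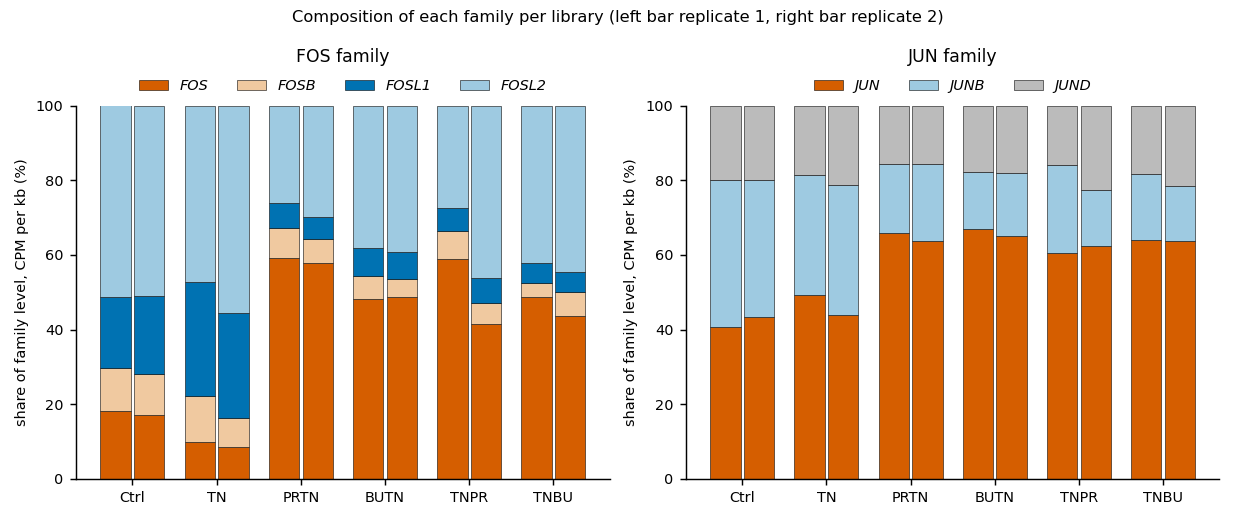
Share of each gene in the summed level of its family in CPM per kb (vertical axis, percent), with 1 bar per library, replicate 1 on the left. The FOS portion widens from 9.22% in TN to 58.5% in PRTN by mean and the JUN portion from 46.6% to 64.8%, while the 2 TNPR bars of the FOS family differ visibly.

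JUN rose in every SCFA group. It had 268 and 304 CPM in Ctrl and 310 and 289 in TN. PRTN had 683 and 622 CPM and BUTN 632 and 564, and TNPR had 560 and 450 CPM and TNBU 538 and 503. All 8 SCFA libraries lay above all 4 others. Against TN the rises were 2.18-fold in PRTN (log2 1.12 ± 0.10, adjusted p = 1.13e-06), 2.0-fold in BUTN (1.0 ± 0.10, adjusted p = 3.98e-06), 1.68-fold in TNPR (0.75 ± 0.10, adjusted p = 4.34e-05) and 1.74-fold in TNBU (0.80 ± 0.10, adjusted p = 2.69e-05). Without TNPR replicate 1, the TNPR value was 0.54, under 1.5-fold. Against Ctrl, JUN rose between 1.76-fold (TNPR) and 2.28-fold (PRTN).

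JUNB, which competes with JUN for partners, moved the other way or not at all. It had 131 CPM in both Ctrl libraries and 102 and 115 in TN. PRTN had 98.1 and 102 CPM and BUTN 72.9 and 73.3, and TNPR had 110 and 55.3 CPM and TNBU 75.5 and 58.5. Against TN it fell 1.63-fold in TNBU (log2 -0.71 ± 0.23, adjusted p = 0.0171). The BUTN difference of -0.57 ± 0.22 had an adjusted p of 0.0458 but was under 1.5-fold. The TNBU call was lost without TN replicate 2 (adjusted p = 0.0977), without TNBU replicate 2 (0.130) and under library size alone (0.0658). Without TNPR replicate 1, JUNB was called lower in TNPR as well (-1.01, adjusted p = 4.42e-05). Against Ctrl, JUNB fell 1.79-fold in BUTN, 1.67-fold in TNPR and 1.97-fold in TNBU, and the TNPR call was lost without TNPR replicate 2 (-0.25, adjusted p = 0.0933) and with DESeq2 (0.0529). JUNB shares 259 exon bases with HOOK2 on the opposite strand, and the strand setting of the counting is not given in the sources used here. The count of HOOK2 reached 1045, beside a lowest JUNB count of 1730 (TNPR replicate 2).

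JUND, the most constitutive JUN gene, varied least. Over the 12 libraries it lay between 62.5 CPM (TN replicate 1) and 90.2 CPM (TNBU replicate 2). Against TN its log2 fold changes were 0.29 ± 0.09, 0.34 ± 0.09, 0.28 ± 0.09 and 0.34 ± 0.09 in PRTN, BUTN, TNPR and TNBU, with adjusted p-values of 0.0136, 0.00538, 0.0155 and 0.00492. All were under 1.5-fold, so JUND was not called. Its group means spanned 1.26-fold from lowest to highest, beside 8.01-fold for FOSL1, 6.24-fold for FOS and 3.93-fold for ATF3.

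Within the JUN family, whose summed mean went from 177 CPM per kb in TN to 278 in PRTN, JUN made up 46.6% ± 3.72 (SD, n = 2) in TN and 64.8% ± 1.49 in PRTN. The JUNB share was 33.4% ± 1.94 in TN and between 16.0% and 19.7% in the SCFA groups. JUND stayed between 15.5% and 19.9% in all 6 groups.

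ATF3, a stress-induced factor of the ATF family that pairs with JUN, also rose. It had 44.1 and 53.8 CPM in Ctrl and 72.5 and 43.1 in TN. PRTN had 227 and 158 CPM and BUTN 144 and 118, and TNPR had 171 and 77.7 CPM and TNBU 105 and 92.7. All 8 SCFA libraries lay above all 4 others, though TNPR replicate 2 only just so. The rises against TN were 3.39-fold in PRTN (log2 1.76 ± 0.32, adjusted p = 0.000436), 2.33-fold in BUTN (1.22 ± 0.33, adjusted p = 0.00660) and 2.07-fold in TNPR (1.05 ± 0.33, adjusted p = 0.0152). TNBU, at 0.82 ± 0.33, had an adjusted p of 0.0517 and was not called.

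The PRTN call of ATF3 held in all 15 alternative settings. The BUTN call was lost without BUTN replicate 1 (adjusted p = 0.0514) or TN replicate 2 (0.82, adjusted p = 0.102). The TNPR call was lost without TNPR replicate 1 (0.43, adjusted p = 0.225), without TN replicate 2 (0.64, adjusted p = 0.191) and when only these groups were fitted (0.0612). TNBU was called in 6 of its 15 alternatives, TN replicate 1 left out among them (1.18, adjusted p = 0.0342). Against Ctrl, ATF3 rose 3.89-fold, 2.67-fold, 2.38-fold and 2.02-fold in PRTN, BUTN, TNPR and TNBU. The TNPR call was lost without TNPR replicate 1 (adjusted p = 0.0814) or Ctrl replicate 1 (0.0503), and the TNBU call without Ctrl replicate 1 (0.115) or TNBU replicate 1 (0.0914).

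EGR1, a zinc finger activator that serum response factor switches on, was abundant in every group and was called in no comparison by limma-voom with all groups fitted. It had 342 and 381 CPM in Ctrl and 479 and 353 in TN. PRTN had 573 and 436 CPM and BUTN 656 and 463, and TNPR had 410 and 184 CPM and TNBU 392 and 263. All 4 SCFA groups overlapped TN. The log2 fold changes against TN were 0.28 ± 0.30, 0.42 ± 0.30, -0.58 ± 0.31 and -0.36 ± 0.31 in PRTN, BUTN, TNPR and TNBU. The 95% intervals ran from -0.37 to 0.94, -0.23 to 1.08, -1.26 to 0.10 and -1.04 to 0.32, so a change of 1.5-fold was not excluded in any. Without TNPR replicate 1, EGR1 was called lower in TNPR than in TN (-1.20, adjusted p = 0.00393) and than in Ctrl (-1.0, adjusted p = 0.0118). Both BUTN libraries lay above both Ctrl libraries, 1.53-fold higher by mean (0.61 ± 0.30, adjusted p = 0.109), and EGR1 was called higher there when only these groups were fitted (0.61, adjusted p = 0.0132) and with the replicate block (0.62, 0.0169).

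IER3 rose with the smallest errors. From 194 and 189 CPM in TN it reached 429 and 416 CPM with PRTN and 427 and 431 with BUTN. TNPR had 359 and 299 CPM and TNBU 373 and 322. No SCFA library overlapped TN or Ctrl. The rises against TN were 2.21-fold (log2 1.14 ± 0.09, adjusted p = 2.15e-07), 2.24-fold (1.17 ± 0.09, adjusted p = 2.28e-07), 1.71-fold (0.78 ± 0.09, adjusted p = 6.63e-06) and 1.81-fold (0.86 ± 0.09, adjusted p = 3.06e-06) in PRTN, BUTN, TNPR and TNBU. Against Ctrl they were 2.83-fold, 2.88-fold, 2.20-fold and 2.33-fold. IER3 shares 440 exon bases with the opposite-strand gene IER3-AS1, whose count did not exceed 18 in any library.

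Against Ctrl, the number of members called higher was 4 in each SCFA group (FOS, JUN, ATF3 and IER3). The background was 22.6% of all genes with PRTN, 22.0% with BUTN, 23.6% with TNPR and 23.6% with TNBU. Called lower were 2 in PRTN (FOSL1 and FOSL2, beside 16.9% of all genes), 3 in BUTN (FOSB, FOSL1 and JUNB, beside 14.9%), 4 in TNPR and 4 in TNBU (FOSB, FOSL1, FOSL2 and JUNB, beside 16.8% and 16.5%). The FOSB call in TNPR was lost without TNPR replicate 2 (-0.42, adjusted p = 0.256), Ctrl replicate 1 (0.0649) or Ctrl replicate 2 (0.0706) and with DESeq2 (0.0932). Its call in BUTN was lost without BUTN replicate 2 (-0.94, adjusted p = 0.0976) or Ctrl replicate 2 (0.0522).

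Propionate and butyrate were not told apart by these genes. Between PRTN and BUTN 0 of 10 members were called, beside 0.0411% of all genes called higher and 0.127% lower in PRTN. FOSL2 alone had an unadjusted p under 0.05 with limma-voom, edgeR and DESeq2, and edgeR and DESeq2 also called 0. FOS was 1.48-fold higher in PRTN, with an interval of the log2 difference from -0.07 to 1.20 and an adjusted p of 0.421. FOSB was 1.59-fold higher in PRTN (interval -0.08 to 1.42, adjusted p = 0.417), and it was called in that direction only when these groups were fitted alone (log2 0.69, adjusted p = 0.0413). The interval of FOSL2 ran from -0.34 to -0.03 and that of IER3 from -0.20 to 0.15. Given after TNF-α, TNPR and TNBU also differed in 0 of 10 members by limma-voom, edgeR and DESeq2. Of all genes, 0.00% were called higher in TNPR and 0.00822% lower, and 0 of 10 members had an unadjusted p under 0.05 in limma-voom and edgeR, with FOSL2 alone in DESeq2. The FOS interval there ran from -0.42 to 0.91. As the doses were 15 mM and 3 mM, these are comparisons of treatments and not of equal amounts of acid, and a missed threshold does not show that the acids act alike.

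Giving the acid after TNF-α was accompanied by lower levels of most members than giving it before, and none passed the limma-voom test with all libraries. In TNPR and TNBU, 24 h with the acid followed the TNF-α exposure. The order of treatment and the time since TNF-α therefore cannot be told apart here. In TNPR all 10 log2 fold changes against PRTN were below 0, with a median of -0.40 beside 0.00 over all genes. In TNBU 9 of 10 were below 0 against BUTN, with a median of -0.33 beside -0.01. None of the members was called by limma-voom, where 0.0534% of all genes were higher and 0.107% lower in TNPR, and 0.0945% higher and 0.173% lower in TNBU. At an unadjusted p under 0.05, limma-voom had 5 members in TNPR vs PRTN (FOS, JUN, ATF3, EGR1 and IER3) and 3 in TNBU vs BUTN (FOSL1, EGR1 and IER3). edgeR called 0 in both, and DESeq2 called 0 and 1, the latter being FOSL1 (log2 -0.69, adjusted p = 0.0191). In DESeq2, FOSL1, JUN and IER3 had an unadjusted p under 0.05 in both comparisons. Of these, 2 had an adjusted p under 0.05 in each comparison, and apart from FOSL1 in TNBU vs BUTN they were under 1.5-fold.

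Of single genes, IER3 was 1.29-fold lower in TNPR than in PRTN (log2 -0.36 ± 0.08, adjusted p = 0.125) and 1.24-fold lower in TNBU than in BUTN (-0.31 ± 0.08, adjusted p = 0.114). In both pairs the later libraries lay below the earlier ones. EGR1 was 1.82-fold lower in TNPR (-0.86 ± 0.31, adjusted p = 0.323) and 1.72-fold lower in TNBU (-0.78 ± 0.30, adjusted p = 0.270), again without overlap. JUND was flat, at -0.01 ± 0.08 and 0.00 ± 0.08. Over all alternative settings, the TNPR value against PRTN ran from -1.37 to -0.01 for FOS and from -0.86 to 0.14 for JUNB. The lowest values, -1.37 and -0.86, came without TNPR replicate 1. That library lay near PRTN: FOS had 254 CPM beside 272 and 240, and JUNB had 110 CPM beside 98.1 and 102. For these genes the lower TNPR mean rested on replicate 2 (99.7 and 55.3 CPM). No member had a timing effect that differed detectably between the acids: the interaction reached an unadjusted p under 0.05 in 0 of 10 members and an adjusted p under 0.05 in 0 of 24342 genes, of which 935 had an unadjusted p under 0.05. edgeR and DESeq2 also had 0 of 10 members at an unadjusted p under 0.05.

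The TNPR replicates differed more than any other pair for these genes. FOS was 2.55-fold higher in TNPR replicate 1 than in replicate 2, FOSB 2.38-fold, EGR1 2.23-fold, ATF3 2.20-fold and JUNB 1.99-fold. Among 14984 genes with a mean of at least 1 CPM, 0.427% differed by more than FOS and 1.04% by more than JUNB between these libraries. The median absolute log2 difference of the 10 members was 0.838 in TNPR, beside 0.128 over all these genes. It was 0.0835 in Ctrl (all genes 0.0862), 0.256 in TN (0.109), 0.157 in PRTN (0.0627), 0.119 in BUTN (0.0701) and 0.267 in TNBU (0.149). FOSL2, JUND, JUN and IER3 differed by at most 1.25-fold in TNPR. Over the 28 other immediate early genes the TNPR median was 0.252, with 22 higher in replicate 1. What separated the TNPR replicates was not tested.

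**Figure D4:**
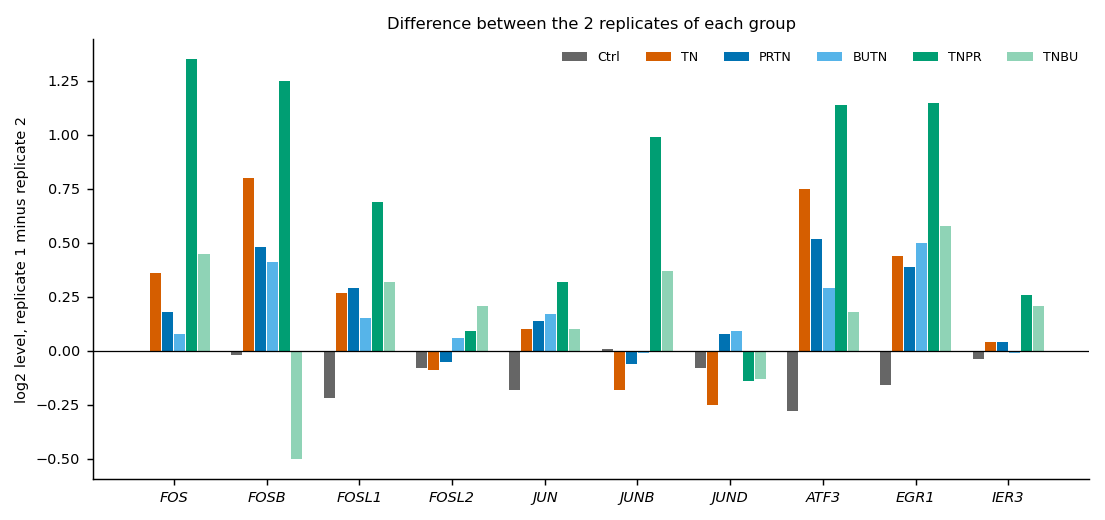
Log2 difference between replicate 1 and replicate 2 (vertical axis) of each gene, with 1 bar per group. The TNPR bars of FOS (1.35), FOSB (1.25), EGR1 (1.15), ATF3 (1.14) and JUNB (0.99) stand out, while FOSL2 and JUND stay within 0.25 in every group.

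Other immediate early genes gave the same picture in part. Of a list of 28, 1 was called higher and 0 lower in TN vs Ctrl, beside 0.764% and 0.534% of all genes. The gene called higher was the nuclear receptor NR4A3 (0.75 ± 0.25 and 1.68 ± 0.112 CPM, SD, n = 2). Against TN, 16 were called higher and 1 lower with PRTN, 8 and 1 with BUTN, 11 and 1 with TNPR, and 9 and 2 with TNBU. Of all genes, 23.1% to 25.0% were called higher and 14.8% to 16.9% lower in these comparisons. The shares of the list called higher lay above this, least so in BUTN and TNBU, and those called lower lay below it. The list medians were 0.80, 0.44, 0.52 and 0.42, each above the all-gene medians given earlier. In PRTN the largest changes at 1 CPM or more were in EGR4, a relative of EGR1, at 2.67 ± 0.935 CPM beside 0.0559 ± 0.0790 in TN, NR4A1 at 77.4 ± 23.7 beside 10.3 ± 4.16, and NR4A2 at 5.09 ± 0.283 beside 0.77 ± 0.175. SRF, the factor that binds CArG boxes, was the 1 gene called lower in PRTN (log2 -0.91 ± 0.08, adjusted p = 5.69e-07), and it was also called lower in BUTN (-0.93 ± 0.08, adjusted p = 5.99e-07), TNPR (-1.05 ± 0.08, adjusted p = 1.70e-07) and TNBU (-1.12 ± 0.08, adjusted p = 1.23e-07). SRF was named after its values were seen.

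Of 26 textbook AP-1 target genes, 11 were called higher and 0 lower in TN vs Ctrl (beside 0.764% and 0.534% of all genes), with a median of 0.58, led by CCL2 (log2 1.95), IL6 (1.55) and CSF2 (1.24), which encode cytokines. At an unadjusted p under 0.05, 0 of the 26 were lower in TN with limma-voom, and edgeR and DESeq2 also called 0 lower. Against TN, 5 were called higher and 13 lower with PRTN, 5 and 11 with BUTN, 4 and 15 with TNPR, and 4 and 14 with TNBU, and the medians were -0.73, -0.48, -1.04 and -0.82. Of all genes, 23.1% to 25.0% were called higher and 14.8% to 16.9% lower in these 4 comparisons. CSF2 had 118 ± 0.241 CPM in TN, 2.20 ± 0.447 with PRTN and 1.11 ± 0.308 with TNBU, and IL6 had 110 ± 2.36, 10.6 ± 0.0552 and 10.5 ± 1.10. AREG, an epidermal growth factor receptor ligand, went the other way, with 14.9 ± 0.333 CPM in TN, 232 ± 0.144 with PRTN and 201 ± 36.9 with TNBU. Many of these genes also answer to NF-κB, so the list is not specific to AP-1. The study named IL6, CXCL8, CCL2, CSF2 and LIF from these same libraries as raised by TNF-α and lowered by SCFAs. The list was chosen with earlier results known, so its counts are not independent evidence.

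**Figure D5:**
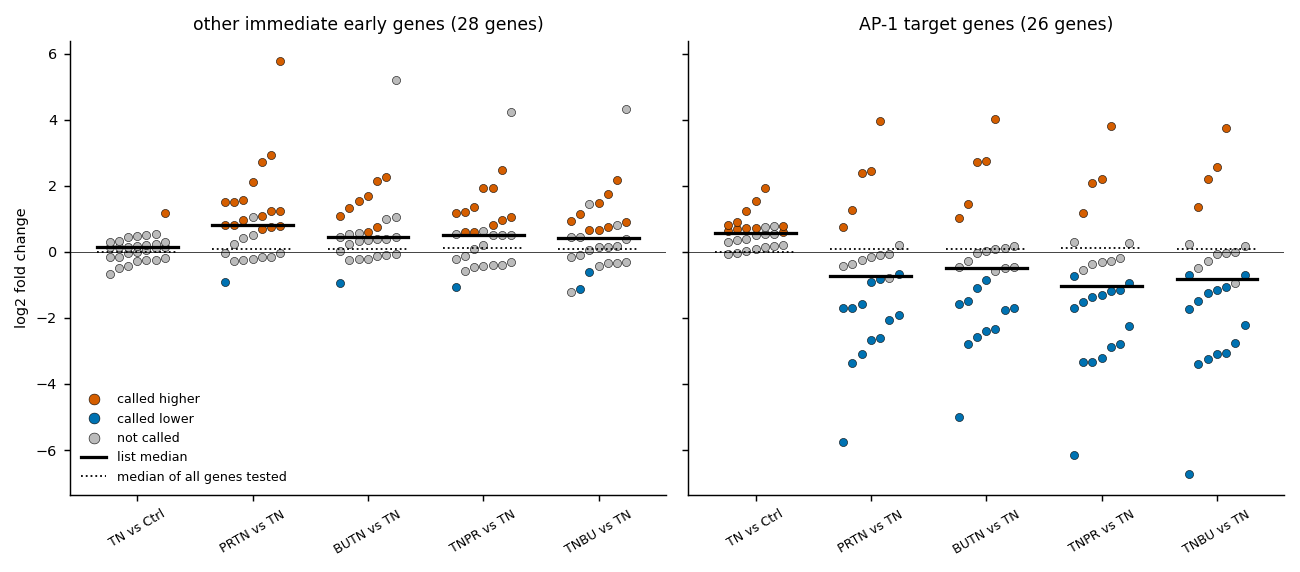
Log2 fold change (vertical axis) of the genes of 2 lists in TN vs Ctrl and in the 4 SCFA groups against TN, coloured by call, with a solid line at the list median and a dotted line at the median of all genes tested. The other immediate early genes have medians between 0.42 and 0.80 with an SCFA, and the AP-1 target genes go from a median of 0.58 with TNF-α to medians between -1.04 and -0.48.

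Of 18 other bZIP genes that pair with or resemble AP-1, 0 were called in TN vs Ctrl, beside 0.764% of all genes called higher and 0.534% lower. In that comparison 7 had an unadjusted p under 0.05 in limma-voom, and edgeR and DESeq2 called 0 and 1. Against TN, 5 were higher and 9 lower with PRTN, 3 and 7 with BUTN, 3 and 9 with TNPR, and 5 and 9 with TNBU. Of all genes, 23.1% to 25.0% were called higher and 14.8% to 16.9% lower in these comparisons. The bZIP shares called lower lay above this, and those called higher lay around or below it. ATF5 (30.9 ± 1.20 CPM in TN, 4.49 ± 0.0315 in PRTN) and ATF4, the main factor of the integrated stress response (344 ± 10.1 and 147 ± 1.22 CPM), were among those that fell. Of 28 genes of the MAPK cascade, 2 were called higher and 1 lower in TN vs Ctrl, beside 0.764% and 0.534% of all genes. Against TN the counts were 8 and 7 with PRTN, 5 and 6 with BUTN, 7 and 9 with TNPR, and 6 and 9 with TNBU. The shares of the MAPK genes called higher lay around the 23.1% to 25.0% of all genes. Those called lower lay above the 14.8% to 16.9% of all genes, and no test of the list was run. MAP2K6, a kinase that activates p38, rose from 1.85 ± 0.0299 CPM in TN to 7.01 ± 0.413 with PRTN, and MAPK10, the JNK of the nervous system, fell from 6.68 ± 0.603 to 1.52 ± 0.177. Of 6 EGR1 corepressors and zinc finger partners, 5 were tested. Against TN, 1 was called higher and 0 lower with PRTN and with BUTN, and 1 and 2 with TNPR and with TNBU. The all-gene shares were again 23.1% to 25.0% higher and 14.8% to 16.9% lower. KLF5 rose in all 4 SCFA groups, by a log2 fold change of 0.87 in BUTN to 1.15 in TNBU. The corepressors NAB1 and NAB2 were called lower in TNPR (-0.69 and -0.73) and in TNBU (-0.62 and -0.71).

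Across the 6 group means, the genes whose pattern lay closest to a member were sought among 12232 genes with a mean of at least 1 CPM. Genes with clone-like names and those of some symbol series, such as ZNF, TMEM, FAM and CCDC, were not compared. A closer gene among them would therefore not be named. The measure was the root mean square difference of centred log2 levels. TINCR, NR4A1 and ID2 lay closest to FOS (0.116, 0.179 and 0.183). IL11, MGAT4C and LAD1 lay closest to FOSL1 (0.148, 0.207 and 0.216), BTG2, FZD5 and TNFSF9 to ATF3 (0.122, 0.183 and 0.187), and DDIT3, ARPC4-TTLL3 and HES1 to FOSB (0.136, 0.190 and 0.211). Among the members themselves, JUN and IER3 were the closest pair (0.141) and FOS and FOSL1 the farthest (1.89).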

How the data were processed

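Poly(A) RNA of 12 HK2 libraries (2 per group) was prepared with a stranded TruSeq kit and sequenced on an Illumina HiSeq. The authors aligned reads with STAR 2.6.1a to GRCh38 and deposited RSEM expected counts for GENCODE 26. They are model estimates, 19.3% of them not whole, and reads shared between similar genes are divided by the model. The RSEM version and strand setting are not given in the sources used here. Totals of 27269986 to 33851130 counts per library set the precision of low values.

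From these counts, genes with a geometric mean of at least 1 (after adding 1 count, then taken off) were kept, which left 24342 of 58278. TMM factors (0.913 to 1.06) and limma-voom (limma 3.58.1, edgeR 4.0.16, R 4.3.3) gave 1 mean per group over all 12 libraries, with Benjamini-Hochberg adjustment over all genes tested. A call needed over 1.5-fold and an adjusted p under 0.05. The code was tested on simulated data.

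Positions and exon lengths came from GENCODE 44, promoters from RefSeq. Groups came from each library's own label. The general treatment text of the labels instead names thapsigargin and JQ1, which neither the library labels nor the study's methods name for these libraries. Over all genes, replicate numbers did not pair the libraries (15 pairs of groups, correlations of -0.0514 to 0.13). Among the 10 members, however, replicate 1 was higher in 7, 8, 8, 9 and 8 in TN, PRTN, BUTN, TNPR and TNBU, and in 1 in Ctrl. Among the 28 other immediate early genes it was higher in 21, 18, 16, 22 and 19 in those groups, and in 10 in Ctrl. Where this shift came from was not tested. Alternatives were edgeR and DESeq2 1.42.0, other scalings, filters and fold limits, fits of only the groups compared, a replicate block, and leaving out each library. The members and gene lists were chosen with earlier results of these data known. All 10 members were to be named, and from each list at most the 3 largest called changes at 1 CPM or more in the higher group. For likeness, 0.1 CPM was added before the log.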

Additional observations from a re-analysis of the deposited data

How the results depend on the processing

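Of 1950 alternative log2 fold changes of the members, 1864 kept their side of the threshold, 62 lost a call, 24 gained one and 0 reversed a called direction, and 366 of 390 alternative counts stayed within 1.5 times the reported count. Over 2-fold instead of 1.5-fold, members called lower numbered 1 in PRTN vs Ctrl and in PRTN vs TN, and 2 in TNBU vs Ctrl, TNBU vs TN and TNPR vs Ctrl. Members called higher then numbered 0 in TN vs Ctrl, 2 in TNBU vs Ctrl, 1 in TNBU vs TN and 2 in TNPR vs TN, since a stricter limit removes small changes by construction. With DESeq2, 1 member was lower in TNBU vs BUTN and 2 in TNPR vs Ctrl. With only the groups compared in the fit, 1 was higher in PRTN vs BUTN and 0 in TN vs Ctrl, and with no filter beyond a count of 1, 2 were higher in TNBU vs Ctrl. The cause was not tested.

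Leaving out 1 library at a time gave 0 to 1 members higher in TN vs Ctrl, 2 to 4 in TNBU vs Ctrl, 2 to 4 in TNPR vs Ctrl and 2 to 4 in TNPR vs TN. It gave 2 to 5 lower in TNPR vs Ctrl, 0 to 2 in TNPR vs PRTN and 2 to 5 in TNPR vs TN. In such a fit the remaining library of a group is assumed to vary like the other groups. The replicate block, whose numbers did not pair the libraries over all genes, gave 5 members higher in BUTN vs Ctrl in place of 4 (EGR1, log2 0.62, adjusted p = 0.0169). It gave 4 higher in TNBU vs TN in place of 3 (ATF3, 0.81, adjusted p = 0.0118). It left the count of members called in each direction as reported elsewhere. With 2 libraries per group, genes that differ between replicates as FOS, FOSB, ATF3 and EGR1 do in TNPR have wide intervals, and a missing call there does not show that levels were equal.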
